A study of Mus musculus with 6 samples.

Results

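The 28 genes described here belong to the attachment of the small protein SUMO to other proteins, its removal, and the ubiquitination of proteins that carry SUMO chains, and include relatives and partners of those enzymes. They were chosen by symbol and make up 28 of the 17450 gene symbols in a table of expression in cultured mouse lung endothelial cells (MLECs), given as FPKM, the fragments of a transcript scaled to its length and to the size of the library. The mice carried the alleles named Hey1 iEC-KO, a knockout, and HEY1 iEC-KI, a knock-in. In 3 libraries the knock-in was the 3KR form (genotype HEY1-3KR KI) and in 3 it was the wild-type form (genotype HEY1-WT KI), so both genotypes shared the Hey1 knockout. The labels name no treatment. The labels spell out neither iEC nor 3KR. The promoter or Cre that drives the alleles and the age and number of the mice are not given in the sources used. Nothing says that the libraries are from different mice or cultures, so each p-value reflects library-to-library spread alone, and this spread may be technical.

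SUMO is made as a precursor that proteases trim to expose its carboxyl end. The SAE1 and UBA2 dimer (the E1) activates it, and E3 ligases such as the PIAS proteins help to place it on lysines of a target. SENP proteases take it off again, and the ubiquitin ligases RNF4 and RNF111 recognise chains of SUMO2 and SUMO3. Many targets are transcription factors, and SUMO on a factor often alters its activity. The title of the series names SUMO on endothelial HEY1, a Notch-induced repressor, as its subject. The libraries measure transcripts, not SUMO attachment.

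Of the 27 genes that passed the filter on low values (at least 1 FPKM in at least 3 libraries), 7 rose in HEY1-3KR KI, 3 fell, and 17 did not pass at a Benjamini-Hochberg adjusted p below 0.05 from limma. Rangap1 (1.43-fold), Senp1 (1.35-fold), Pias1 (1.29-fold), Trim28 (1.23-fold), Zmiz2 (1.16-fold), Uba2 (1.13-fold) and Sae1 (1.09-fold) were higher, and Senp5 (1.27-fold), Topors (1.12-fold) and Rnf111 (1.12-fold) were lower, all as ratios of mean FPKM. Across all 11432 genes tested, 53.2% passed, 29.9% higher and 23.4% lower in HEY1-3KR KI, and the share of the 27 that passed was 37.0%. Their median log2 fold change was -0.0038, against 0.019 for all tested genes, and without regard to sign the medians were 0.12 and 0.17. The split of 7 higher and 3 lower depended on the scaling between libraries: median-of-ratios scaling gave 5 higher and 6 lower, and quantile normalization gave 6 higher and 8 lower. The share that passed moved with it, to 40.7% of the 27 against 53.0% of all genes after median-of-ratios scaling and 51.9% against 54.2% after quantile normalization. The call held in each of 12 alternatives for 7 of the 10, namely Rangap1, Senp1, Trim28, Pias1, Uba2, Senp5 and Topors, and was lost in some for Sae1, Zmiz2 and Rnf111. Senp7 was under the filter and was not tested.

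**Figure D1:**
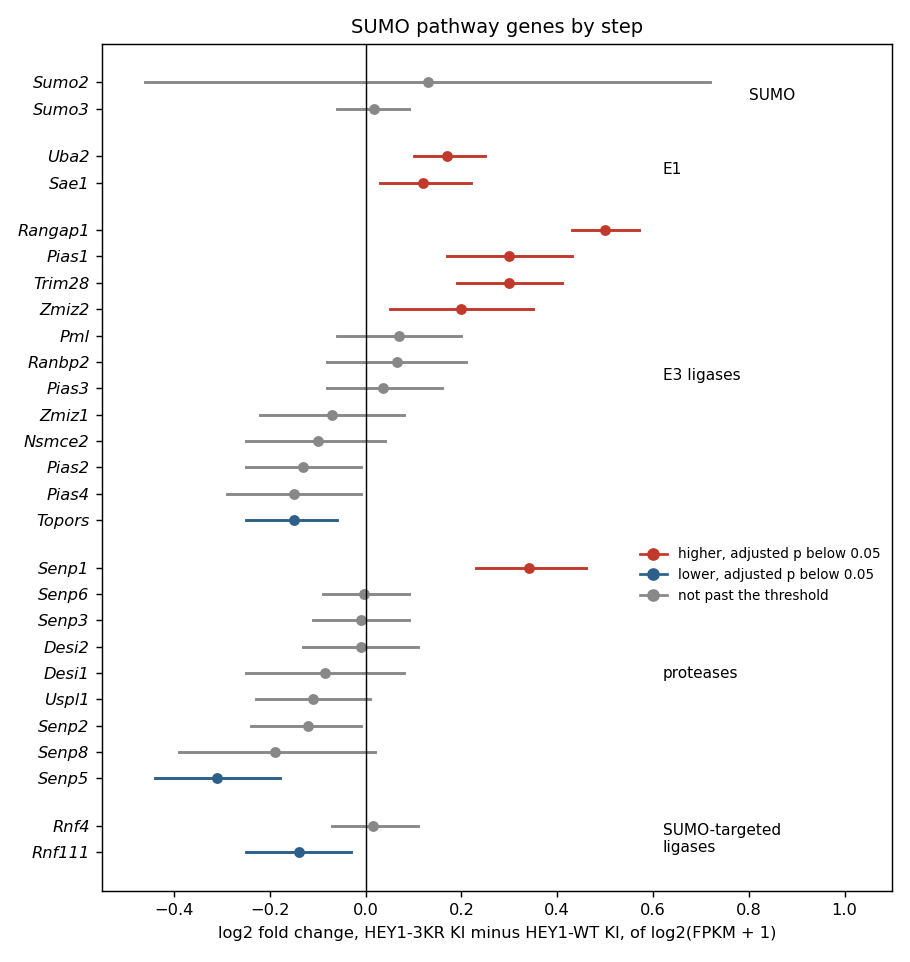
Log2 fold change of log2(FPKM + 1), HEY1-3KR KI minus HEY1-WT KI, for the 27 tested genes grouped by step; points are limma estimates, bars 95% confidence intervals, and colour marks the call. Rangap1 stands highest at 0.50 and Senp5 lowest at -0.31, while Sumo2 has an interval from -0.46 to 0.72.

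Column sums of the table lay between 258650 and 265967 FPKM. Libraries correlated at 0.994 to 0.996 within a genotype and at 0.96 to 0.964 between genotypes (log2 scale, tested genes). Read totals are not given. A search for depths that turn low values into whole fragments placed at most 59.0% of them within 0.1 of a whole number in any library. Evenly spread values would give 20% at a depth set in advance, and more at the best of many depths. Depth is therefore treated as unknown. Labelled as endothelial, all libraries held endothelial transcripts, with Cdh5 at 133 ± 2.89 FPKM in HEY1-3KR KI and 77.7 ± 4.44 FPKM in HEY1-WT KI (SD, n = 3 each), and also those of other cells, with Lyz2 of macrophages at 3482 ± 121 FPKM in HEY1-3KR KI and 3138 ± 51.3 FPKM in HEY1-WT KI. Bulk RNA does not show which cells a transcript came from, and fewer cells of a type cannot be told apart from less RNA per cell. Summed FPKM of 10 endothelial markers ranged from 368 to 377 in HEY1-3KR KI and from 216 to 227 in HEY1-WT KI, and 9 of 10 rose. The 10 macrophage and monocyte markers summed to 4048 to 4303 FPKM in HEY1-3KR KI and 3604 to 3666 FPKM in HEY1-WT KI, and all 10 rose. Of fibroblast and smooth muscle markers 5 of 9 tested rose and 2 fell (2066 to 2117 FPKM in HEY1-3KR KI against 1533 to 1548 FPKM in HEY1-WT KI, summed over 10). Those that rose were the fibroblast genes Col1a1, Col1a2, Col3a1, Dcn and Pdgfra. Of the smooth muscle genes, Myh11 and Cnn1 fell (log2 fold change -0.18 and -0.17), and Acta2 and Tagln did not pass. Acta2 had 707 ± 17.5 FPKM in HEY1-3KR KI and 692 ± 5.97 FPKM in HEY1-WT KI, and Col1a1 676 ± 11.9 FPKM in HEY1-3KR KI and 317 ± 4.24 FPKM in HEY1-WT KI. Lum, at 0.385 to 1.28 FPKM, was under the filter. Of 10 epithelial markers 8 rose (433 to 647 FPKM in HEY1-3KR KI against 122 to 228 FPKM in HEY1-WT KI), with Sftpc at 106 ± 13.4 FPKM in HEY1-3KR KI and 19.7 ± 5.42 FPKM in HEY1-WT KI. Cldn5, the second endothelial marker by level, had 66.5 ± 1.35 FPKM in HEY1-3KR KI and 33.3 ± 1.25 FPKM in HEY1-WT KI, Cd68 of macrophages 319.6 ± 14.1 FPKM in HEY1-3KR KI and 280.4 ± 22.8 FPKM in HEY1-WT KI, and Scgb1a1 of club cells 146 ± 98.0 FPKM in HEY1-3KR KI and 54.3 ± 50.6 FPKM in HEY1-WT KI. Scgb1a1 did not pass (limma adjusted p = 0.0572). Its libraries ran from 76.5 to 258 FPKM in HEY1-3KR KI and from 18.8 to 112 FPKM in HEY1-WT KI. Much of the spread in the epithelial sums is therefore from Scgb1a1. Epcam, among the 8 epithelial markers that rose, passed the filter only through HEY1-3KR KI, with 0.807, 0.958 and 0.923 FPKM in HEY1-WT KI. For comparison with these marker counts, 29.9% of all tested genes were called higher and 23.4% lower. The part of these cell types in the results below was not tested.

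Sumo2 and Sumo3 encode near-identical modifiers that form chains, so it matters whether reads can be told apart. The following stretches of 90 coding bases are the most alike of all windows of that length in the same reading frame, and 2 processed pseudogenes, copies of the Sumo2 transcript inserted elsewhere in the genome, are set beside them. Sequences are from GENCODE M21 (GRCm38), 5′ to 3′, with capitals at bases that differ from Sumo2.
Sumo2 (bases 151 to 240 of the coding sequence, chromosome 11): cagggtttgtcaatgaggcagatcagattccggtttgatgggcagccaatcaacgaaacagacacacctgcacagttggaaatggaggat
Sumo3 (bases 157 to 246 of the coding sequence, chromosome 10): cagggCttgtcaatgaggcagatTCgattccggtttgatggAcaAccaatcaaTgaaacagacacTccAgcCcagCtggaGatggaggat
Gm10241 (pseudogene, chromosome 16): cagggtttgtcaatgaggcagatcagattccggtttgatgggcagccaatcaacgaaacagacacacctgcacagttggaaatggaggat
Smt3h2-ps4 (pseudogene, chromosome 1): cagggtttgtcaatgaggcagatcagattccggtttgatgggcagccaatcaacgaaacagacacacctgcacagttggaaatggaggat
Sumo3 matched Sumo2 at 79 of the 90 bases (87.8%), and the longest run the transcripts of both genes share was 17 bases, so no 50-base read fits both exactly. Both pseudogenes matched Sumo2 at all 90 bases, and 19.2% of all 50-base words of Sumo2 transcripts also occurred in the models of 14 other genes. How reads shared between copies were assigned is not given, so Sumo2 values are uncertain.

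Sumo2 on chromosome 11 (115523102 to 115536276, minus strand) had 37.1, 19.6 and 27.0 FPKM in HEY1-3KR KI libraries 1 to 3, against 36.4, 19.6 and 20.7 FPKM in HEY1-WT KI libraries 1 to 3. The first library of each genotype was high and the second low, and the groups overlapped almost entirely. The log2 fold change was 0.13, with a 95% interval from -0.46 to 0.72 (limma adjusted p = 0.697). Its spread within a genotype, a pooled SD of 0.461 on the log2 scale, was larger than that of 99.8% of 1143 genes of like level, whose median SD was 0.0524. The part of the pseudogene copies in that spread was not tested. Sumo3 on chromosome 10 (77606097 to 77618331) was even by comparison, at 35.4, 34.4 and 34.6 FPKM in HEY1-3KR KI, against 34.9, 33.8 and 34.4 FPKM in HEY1-WT KI. Its log2 fold change of 0.017 had an interval from -0.06 to 0.09 (limma adjusted p = 0.686), and 346 exonic bases (9.5%) are shared with Gm49325 on the same strand. Neither gene passed the threshold.

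**Figure D2:**
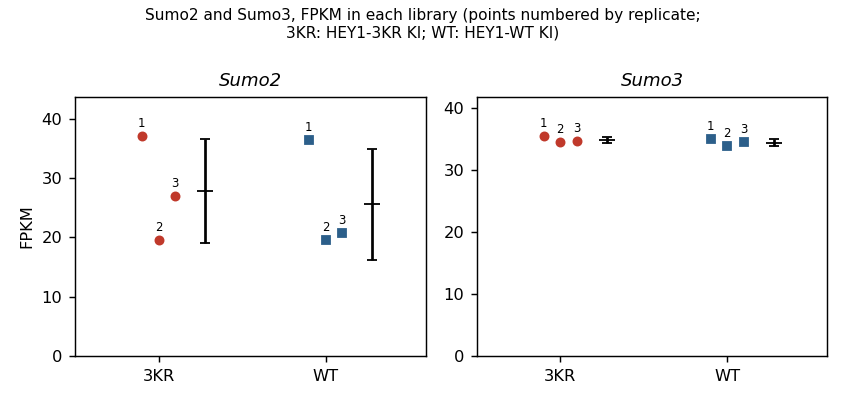
FPKM of Sumo2 and Sumo3 in each library, points numbered by replicate, HEY1-3KR KI left of HEY1-WT KI, with mean and SD (n = 3) in black. Sumo2 spreads from 19.6 to 37.1 FPKM within HEY1-3KR KI, whereas Sumo3 stays between 33.8 and 35.4 FPKM in all 6 libraries.

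Both subunits of the activating enzyme rose. Uba2, the catalytic subunit (chromosome 7, 34140688 to 34169599), had 28.5, 27.8 and 28.8 FPKM in HEY1-3KR KI, against 25.4, 24.6 and 25.1 FPKM in HEY1-WT KI, and the groups did not overlap. Its log2 fold change was 0.17 ± 0.0342 (SE; limma adjusted p = 0.00251). Sae1, the partner subunit (chromosome 7, 16320234 to 16387806), had 69.2, 62.3 and 67.1 FPKM in HEY1-3KR KI, against 61.6, 59.3 and 60.9 FPKM in HEY1-WT KI. The lowest HEY1-3KR KI library lay just above the highest HEY1-WT KI library, and the log2 fold change was 0.12 ± 0.0435 (limma adjusted p = 0.0385). The call for Sae1 passed in only 5 of 12 alternatives and was lost after median-of-ratios scaling (limma adjusted p = 0.0848), without the variance trend (0.0672) and without any one library other than HEY1-3KR KI replicate 2 (0.0562 to 0.137). Per length, Sae1 stood at 2.33 ± 0.0941 times Uba2 in HEY1-3KR KI and 2.42 ± 0.0103 times in HEY1-WT KI, a ratio of levels within a library.

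The 12 genes grouped as E3 ligases include true ligases, the RANBP2 complex with its bound substrate RANGAP1, and PML, the scaffold of nuclear bodies rich in SUMO. Among them 4 rose, 1 fell and 7 did not pass (41.7% called, against 53.2% of all tested genes), and the median log2 fold change was 0.051. Rangap1, which activates the RAN GTPase and, when modified by SUMO, binds RANBP2 at the nuclear pore, had the largest log2 fold change of the 27. It is on chromosome 15 (81704248 to 81745530) and had 48.2, 49.4 and 49.2 FPKM in HEY1-3KR KI, against 34.7, 34.2 and 34.2 FPKM in HEY1-WT KI. The groups were far apart for their spread, with a log2 fold change of 0.50 ± 0.0316 (limma adjusted p = 2.76e-06). Exons of Rangap1 share 65 bases (1.3%) with Zc3h7b on the opposite strand. Ranbp2, the nucleoporin with ligase activity (chromosome 10, 58446920 to 58494356), had 13.8, 15.2 and 13.7 FPKM in HEY1-3KR KI, against 12.4, 14.7 and 13.7 FPKM in HEY1-WT KI, with overlapping groups and an interval from -0.08 to 0.21. Chosen after the values were seen, as are the other ratios given here, the level of Rangap1 over that of Ranbp2 was 3.48, 3.25 and 3.58 in HEY1-3KR KI libraries and 2.79, 2.33 and 2.49 in HEY1-WT KI libraries. Both genes serve nuclear transport, and of 11 tested genes of the pore and RAN cycle 3 rose and 1 fell (36.4% called, against 53.2% of all tested genes; median log2 fold change 0.077). Kpna2, an importin alpha, had 95.5 ± 2.59 FPKM in HEY1-3KR KI and 67.9 ± 0.936 FPKM in HEY1-WT KI, Rcc1, the exchange factor of RAN, 24.1 ± 0.768 FPKM in HEY1-3KR KI and 17.8 ± 0.695 FPKM in HEY1-WT KI, and Kpnb1, importin beta, 109 ± 2.36 FPKM in HEY1-3KR KI and 91.4 ± 1.83 FPKM in HEY1-WT KI (SD, n = 3 each).

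Trim28, a corepressor recruited by zinc finger proteins that carries its own SUMO ligase activity (chromosome 7, 12999114 to 13031035), had 70.6, 65.3 and 69.1 FPKM in HEY1-3KR KI, against 58.2, 55.3 and 52.7 FPKM in HEY1-WT KI. The groups did not overlap, and the log2 fold change was 0.30 ± 0.0466 (limma adjusted p = 0.000679). Of 9 tested genes of its heterochromatin partners, 7 rose and 0 fell (77.8% called, against 53.2% of all tested genes; the median of their log2 fold changes was 0.20). At an unadjusted p below 0.05 the limma counts were 8 and 0. Those of smallest p encode the heterochromatin proteins that read methylated histone H3, with Cbx5 at 16.6 ± 0.509 FPKM in HEY1-3KR KI and 11.9 ± 0.43 FPKM in HEY1-WT KI, Cbx1 at 12.2 ± 0.256 FPKM in HEY1-3KR KI and 9.33 ± 0.445 FPKM in HEY1-WT KI, and Cbx3 at 12.3 ± 0.174 FPKM in HEY1-3KR KI and 9.57 ± 0.636 FPKM in HEY1-WT KI. All 12 proliferation markers rose, against 29.9% of all tested genes. Their median was 0.74 and their summed level 401 to 409 FPKM in HEY1-3KR KI and 229.7 to 237 FPKM in HEY1-WT KI. Those of smallest p were the mitotic kinase Plk1 (56.6 ± 1.02 FPKM in HEY1-3KR KI and 23.6 ± 0.627 FPKM in HEY1-WT KI), the mitotic kinase Aurka (27.7 ± 0.475 FPKM in HEY1-3KR KI and 14.9 ± 0.335 FPKM in HEY1-WT KI) and the replication helicase subunit Mcm5 (39.8 ± 1.65 FPKM in HEY1-3KR KI and 21.9 ± 0.348 FPKM in HEY1-WT KI). The part of proliferation in the rises of Rangap1, Trim28, Uba2 and Sae1 was not tested.

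The PIAS proteins are the classic ligases, first known as inhibitors of STAT factors, and their 4 genes differed in direction. Pias1 (chromosome 9, 62878368 to 62987924) had 5.31, 5.67 and 5.13 FPKM in HEY1-3KR KI, against 4.02, 4.46 and 4.05 FPKM in HEY1-WT KI. Its groups did not overlap, and the log2 fold change was 0.30 ± 0.056 (limma adjusted p = 0.0019). Pias2 had 8.43, 8.43 and 8.83 FPKM in HEY1-3KR KI, against 9.03, 10.2 and 9.20 FPKM in HEY1-WT KI, and Pias4 had 8.64, 7.61 and 9.02 FPKM in HEY1-3KR KI, against 9.78, 9.45 and 9.14 FPKM in HEY1-WT KI. For both, every HEY1-3KR KI library was below every HEY1-WT KI library, and neither passed (limma adjusted p = 0.065 for each). Both passed after median-of-ratios scaling (limma adjusted p = 0.0367 for Pias2 and 0.0369 for Pias4) and after quantile normalization (0.022 and 0.0205). Pias2 also passed without HEY1-WT KI replicate 1 (limma adjusted p = 0.0487), and Pias4 without HEY1-3KR KI replicate 3 (0.0307). Pias3 had 8.03, 7.92 and 7.94 FPKM in HEY1-3KR KI, against 7.15, 8.0 and 8.13 FPKM in HEY1-WT KI, with overlapping groups (limma adjusted p = 0.593). Within a library, the Pias1 level relative to the other three summed was 0.211, 0.237 and 0.199 in HEY1-3KR KI and 0.155, 0.161 and 0.153 in HEY1-WT KI, and Pias1 was the least abundant of the family in both genotypes. Summed over the family, FPKM was 30.3 ± 0.651 in HEY1-3KR KI and 30.9 ± 1.08 in HEY1-WT KI, with overlapping groups.

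Zmiz1 and Zmiz2 encode PIAS-like proteins with the same type of zinc finger. Zmiz2 had 18.2, 15.7 and 17.3 FPKM in HEY1-3KR KI, against 14.0, 16.1 and 14.3 FPKM in HEY1-WT KI. It was the only called member of the 10 whose groups overlapped, its log2 fold change was 0.20 ± 0.0657 (limma adjusted p = 0.0327), and the call was lost in 8 of 12 alternatives, among them both scalings (limma adjusted p = 0.0573 and 0.0579), the replicate block (0.0697), and the fits without HEY1-3KR KI replicate 1 or 3 or HEY1-WT KI replicate 1 or 3 (0.0774 to 0.114). Zmiz1, known as a Notch1 cofactor in T cells, had 20.8, 22.7 and 19.7 FPKM in HEY1-3KR KI, against 20.6, 23.9 and 22.1 FPKM in HEY1-WT KI, and did not pass (limma adjusted p = 0.399). Topors, a RING protein with both ubiquitin and SUMO ligase activity (chromosome 4, 40259601 to 40269850), fell to 16.5, 17.5 and 16.5 FPKM in HEY1-3KR KI, against 18.8, 19.3 and 18.5 FPKM in HEY1-WT KI. Its groups did not overlap, and the log2 fold change was -0.15 ± 0.0401 (limma adjusted p = 0.0109). Exons of Topors share 113 bases (2.9%) with Smim27 on the opposite strand, and since strand handling is not given, reads there cannot be told apart.

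Pml had 19.4, 20.6 and 19.0 FPKM in HEY1-3KR KI, against 17.3, 20.2 and 18.7 FPKM in HEY1-WT KI, with overlapping groups and an interval from -0.06 to 0.20. Of 10 genes of nuclear body components, 6 were called higher and 0 lower (6 of 10 called, against 53.2% of all tested genes), with a median of 0.20 on the log2 scale. At an unadjusted p below 0.05 limma gave 7 higher and 0 lower. Those of smallest p were Sp110 (1.79 ± 0.0559 FPKM in HEY1-3KR KI and 0.997 ± 0.0653 FPKM in HEY1-WT KI), the helicase gene Blm (3.37 ± 0.195 FPKM in HEY1-3KR KI and 2.40 ± 0.0525 FPKM in HEY1-WT KI) and Sp140 (4.33 ± 0.149 FPKM in HEY1-3KR KI and 3.23 ± 0.341 FPKM in HEY1-WT KI). Sp110 passed the filter of 1 FPKM only through its HEY1-3KR KI libraries, with 1.07, 0.989 and 0.936 FPKM in HEY1-WT KI. Sp110 and Sp140 are speckled proteins of immune cells. PML is induced by interferon, and of 10 tested interferon-stimulated genes 2 rose and 6 fell (80.0% called, against 53.2% of all tested genes, median -0.31). The list held 12 genes, of which 11 had values and Ifit1 was under the filter. Usp18, which fell, passed the filter only through HEY1-WT KI (1.37, 1.14 and 1.1 FPKM, against 0.792, 0.424 and 0.57 FPKM in HEY1-3KR KI). Ifit3 had 1.45 ± 0.0968 FPKM in HEY1-3KR KI and 2.60 ± 0.0443 FPKM in HEY1-WT KI, Irf7 1.88 ± 0.165 FPKM in HEY1-3KR KI and 3.27 ± 0.197 FPKM in HEY1-WT KI, and Isg15 3.33 ± 0.455 FPKM in HEY1-3KR KI and 5.92 ± 0.592 FPKM in HEY1-WT KI. Nsmce2, the ligase subunit of the SMC5/6 DNA repair complex, had 5.63, 4.99 and 6.08 FPKM in HEY1-3KR KI, against 6.04, 6.04 and 5.98 FPKM in HEY1-WT KI, and did not pass (limma adjusted p = 0.217). Of 7 other genes of that complex and its loading factors, 42.9% were called, against 53.2% of all tested genes: Nsmce4a (5.51 ± 0.21 FPKM in HEY1-3KR KI and 4.35 ± 0.157 FPKM in HEY1-WT KI) and Slf1 (2.65 ± 0.212 FPKM in HEY1-3KR KI and 2.02 ± 0.238 FPKM in HEY1-WT KI) rose, and Slf2 fell (8.99 ± 0.34 FPKM in HEY1-3KR KI and 10.2 ± 0.138 FPKM in HEY1-WT KI).

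**Figure D3:**
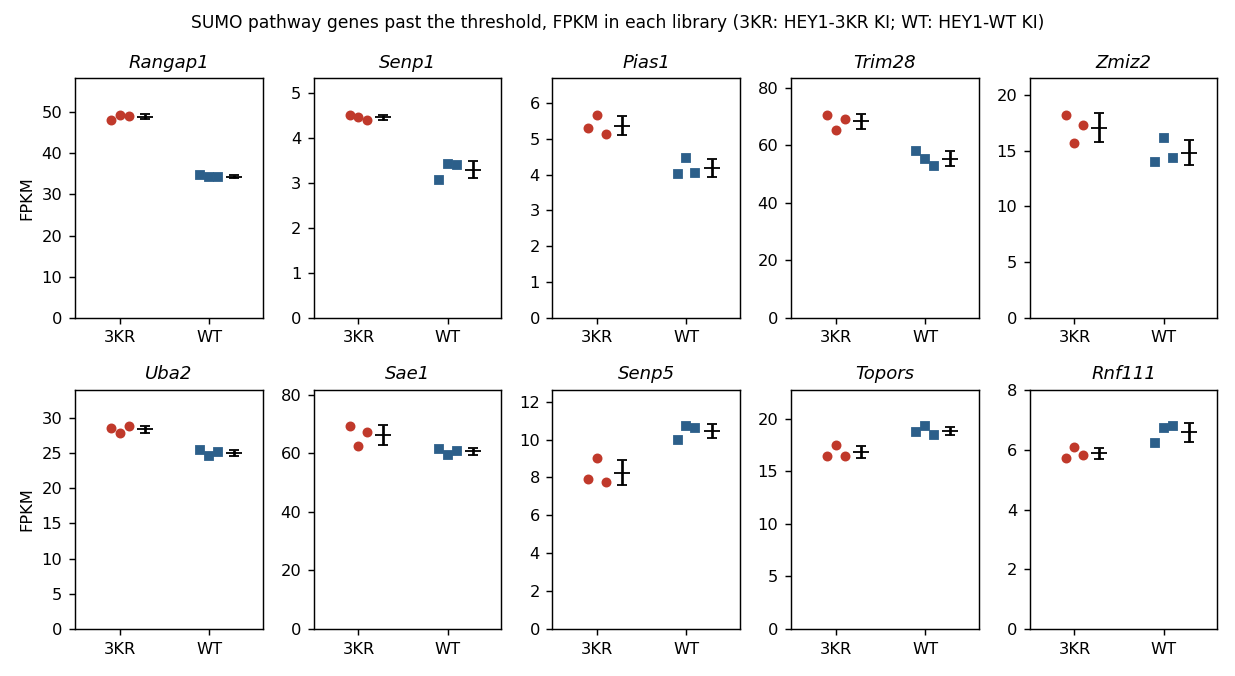
FPKM in each library of the 10 genes past the threshold, HEY1-3KR KI left of HEY1-WT KI on axes from 0, with mean and SD (n = 3) in black; the first 7 were higher and the last 3 lower in HEY1-3KR KI. The groups do not overlap except for Zmiz2.

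Of the 10 genes grouped as proteases, 1 rose, 1 fell, 7 did not pass and Senp7 was not tested. The share called was 22.2% of the 9 tested, against 53.2% of all tested genes. For the SENP genes that act on SUMO alone it was 40.0% of 5 tested. The 2 that passed went in opposite directions. Senp1, which matures SUMO precursors and removes SUMO from many nuclear proteins (chromosome 15, 98038744 to 98093744), had 4.51, 4.46 and 4.39 FPKM in HEY1-3KR KI, against 3.07, 3.41 and 3.40 FPKM in HEY1-WT KI. The groups did not overlap, and the log2 fold change was 0.34 ± 0.052 (limma adjusted p = 0.000561). Exons of Senp1 share 462 bases (3.9%) with the antisense gene Gm26513. Senp5, a nucleolar protease with a preference for SUMO2 and SUMO3 (chromosome 16, 31959672 to 32003287), fell to 7.94, 9.0 and 7.78 FPKM in HEY1-3KR KI, against 10.0, 10.7 and 10.6 FPKM in HEY1-WT KI. Its groups did not overlap, and the log2 fold change was -0.31 ± 0.0581 (limma adjusted p = 0.0019). Its exons share 131 bases (1.8%) with Ncbp2 on the opposite strand. The level of Senp1 over that of Senp5 was 0.568, 0.496 and 0.564 in HEY1-3KR KI libraries and 0.307, 0.320 and 0.320 in HEY1-WT KI libraries. Senp5 stayed the more abundant of the pair per length in every library.

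Senp3, the nucleolar relative of Senp5, had 26.5, 25.8 and 24.3 FPKM in HEY1-3KR KI, against 25.8, 24.8 and 26.5 FPKM in HEY1-WT KI, and was the most abundant of the family. Its interval ran from -0.11 to 0.09, and 9.1% of its 50-base words also occur in the processed pseudogenes Gm6580 and Gm15236. Senp2, the nearest relative of Senp1, which acts at the nuclear pore, had 8.45, 8.32 and 8.55 FPKM in HEY1-3KR KI, against 8.67, 9.81 and 9.34 FPKM in HEY1-WT KI. Its groups did not overlap, and it did not pass (limma adjusted p = 0.0722) except after median-of-ratios scaling (0.0404), after quantile normalization (0.0262) and without HEY1-WT KI replicate 1 (0.0233). Senp1 therefore stood at 0.533, 0.536 and 0.513 of Senp2 in HEY1-3KR KI libraries and at 0.354, 0.348 and 0.365 in HEY1-WT KI libraries. The chain-editing proteases were Senp6, with 9.97, 10.2 and 9.92 FPKM in HEY1-3KR KI, against 10.3, 9.98 and 9.93 FPKM in HEY1-WT KI and an interval from -0.09 to 0.09, and Senp7, with 0.842, 0.830 and 0.726 FPKM in HEY1-3KR KI, against 0.838, 0.776 and 0.907 FPKM in HEY1-WT KI. Senp7 lay just under the filter of 1 FPKM in all libraries, and Senp8 was the lowest gene to pass it.

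Senp8 bears the family's name but acts on NEDD8, a ubiquitin-like modifier of cullin ligases, and not on SUMO. It had 1.45, 1.01 and 1.38 FPKM in HEY1-3KR KI, against 1.67, 1.70 and 1.40 FPKM in HEY1-WT KI, with overlapping groups (limma adjusted p = 0.109; 0.0419 after quantile normalization). Of 14 genes of NEDD8 conjugation and removal, limma called 0 higher and 3 lower (1 and 4 at an unadjusted p below 0.05), with a median of -0.037. The share called was 21.4%, against 53.2% of all tested genes, and the share lower over all tested genes was 23.4%. Cops5, the catalytic subunit of the signalosome that removes NEDD8 from cullins, had 16.6 ± 0.534 FPKM in HEY1-3KR KI and 20.5 ± 0.152 FPKM in HEY1-WT KI, Ube2m, the NEDD8 E2, 35.1 ± 0.451 FPKM in HEY1-3KR KI and 42.3 ± 2.76 FPKM in HEY1-WT KI, and Dcun1d3, a co-ligase, 2.71 ± 0.0798 FPKM in HEY1-3KR KI and 3.45 ± 0.331 FPKM in HEY1-WT KI. The remaining proteases are of other folds. Uspl1, a SUMO protease of Cajal bodies, had 3.35, 3.40 and 3.23 FPKM in HEY1-3KR KI, against 3.58, 3.92 and 3.56 FPKM in HEY1-WT KI. Its groups did not overlap, and it did not pass (limma adjusted p = 0.097; 0.0174 after quantile normalization). Desi1 had 12.8, 13.9 and 15.1 FPKM in HEY1-3KR KI, against 16.2, 14.8 and 13.5 FPKM in HEY1-WT KI, and Desi2 had 4.42, 4.79 and 4.59 FPKM in HEY1-3KR KI, against 4.86, 4.60 and 4.46 FPKM in HEY1-WT KI. Groups of both overlapped, with intervals from -0.25 to 0.08 for Desi1 and from -0.13 to 0.11 for Desi2, and 344 exonic bases of Desi1 (9.5%) are shared with Xrcc6 on the opposite strand. Summed over the 10 genes, FPKM was 80.0 to 81.7 in HEY1-3KR KI and 83.7 to 85.0 in HEY1-WT KI, whereas the 12 genes grouped as E3 ligases summed to 241 to 244 FPKM in HEY1-3KR KI and 211 to 222 FPKM in HEY1-WT KI, sums in which Trim28 and Rangap1 weigh most.

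The SUMO-targeted ubiquitin ligases link SUMO chains to degradation. Rnf4 had 24.3, 23.4 and 22.5 FPKM in HEY1-3KR KI, against 23.5, 23.2 and 22.7 FPKM in HEY1-WT KI, with overlapping groups and an interval from -0.07 to 0.11. Rnf111 (Arkadia), which also promotes TGF-beta signalling by degrading its inhibitors (chromosome 9, 70425424 to 70503725), fell to 5.74, 6.10 and 5.83 FPKM in HEY1-3KR KI, against 6.24, 6.75 and 6.80 FPKM in HEY1-WT KI. Its groups did not overlap, with a log2 fold change of -0.14 ± 0.0494 (limma adjusted p = 0.0406). That call was lost without the filter on low values (0.0532), without HEY1-3KR KI replicate 1 (0.116) or 3 (0.095), and without HEY1-WT KI replicate 2 (0.115) or 3 (0.126), as adjusted p from limma. Of 6 genes that form, unfold or process SUMO and ubiquitin conjugates, 3 were called, against 53.2% of all tested genes. Usp7 rose (18.3 ± 1.16 FPKM in HEY1-3KR KI and 16.4 ± 0.613 FPKM in HEY1-WT KI). Uba1, the ubiquitin E1 (127 ± 2.86 FPKM in HEY1-3KR KI and 139 ± 2.77 FPKM in HEY1-WT KI), and Usp11 (3.01 ± 0.163 FPKM in HEY1-3KR KI and 4.16 ± 0.16 FPKM in HEY1-WT KI) fell.

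A list of other SUMO pathway genes had 8 entries, of which 6 were tested. Egr2 and Trim27 were called higher and 0 were called lower by limma (33.3% called, against 53.2% of all tested genes; 3 and 0 at an unadjusted p below 0.05), with a median of 0.091 on the log2 scale. Egr2, a macrophage and nerve transcription factor with reported SUMO ligase activity, had 3.16, 2.88 and 2.68 FPKM in HEY1-3KR KI, against 1.6, 1.48 and 1.58 FPKM in HEY1-WT KI. Trim27, another TRIM ligase, averaged 9.61 ± 0.244 FPKM in HEY1-3KR KI and 8.28 ± 0.722 FPKM in HEY1-WT KI. Zfp451, a ligase that extends SUMO2 and SUMO3 chains, averaged 2.28 ± 0.0806 FPKM in HEY1-3KR KI and 2.02 ± 0.0374 FPKM in HEY1-WT KI and did not pass (limma adjusted p = 0.083).

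Across the 28 genes, the highest mean levels in HEY1-3KR KI were those of Trim28 (68.3 ± 2.74 FPKM), Sae1 (66.2 ± 3.54 FPKM), Rangap1 (48.9 ± 0.681 FPKM) and Sumo3 (34.8 ± 0.512 FPKM), in that order. In HEY1-WT KI the order was Sae1 (60.6 ± 1.15 FPKM), Trim28 (55.4 ± 2.8 FPKM), Sumo3 (34.4 ± 0.542 FPKM) and Rangap1 (34.3 ± 0.279 FPKM), and Senp7 was lowest in both genotypes. Trim28 and Sae1 in HEY1-3KR KI, and Sumo3 and Rangap1 in HEY1-WT KI, did not differ beyond their spread. In 13 of the 27 tested genes the libraries of the genotypes did not overlap, 6 higher and 7 lower in HEY1-3KR KI, against 61.1% of all tested genes, 34.1% higher and 27.0% lower. Of those 13, 4 did not pass the test (Pias2, Pias4, Senp2 and Uspl1), all lower in HEY1-3KR KI.

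**Figure D4:**
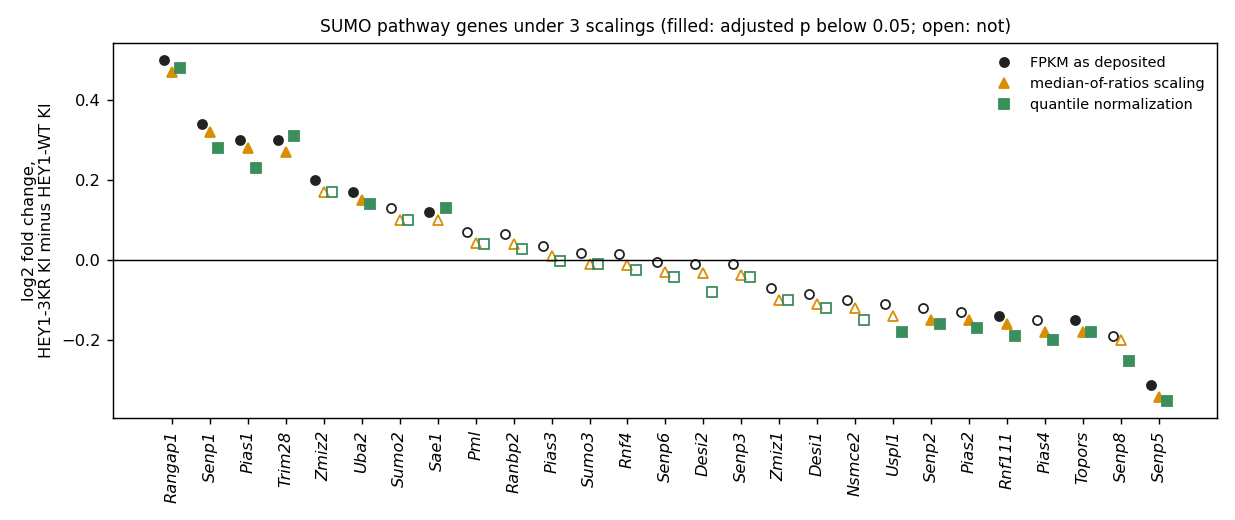
Log2 fold change (HEY1-3KR KI minus HEY1-WT KI) of the 27 tested genes with FPKM as deposited, after median-of-ratios scaling and after quantile normalization; filled symbols have a limma adjusted p below 0.05. Rangap1, Senp1, Pias1, Trim28, Uba2, Rnf111, Topors and Senp5 are filled under all 3, and Pias2, Pias4 and Senp2 only after either rescaling.

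HEY proteins bind DNA at E-box sequences, for which CACGTG and CACGCG were searched on both strands in promoters (250 bases before to 50 after a transcript start, RefSeq, GRCm38.p6). Promoters were found for 22 of the 28 genes. CACGTG occurred in 2 of the 22 (9.09%), against 8.09% of all 27025 genes with a promoter, and CACGCG in 5 (22.7%), against 10.5%. The 32 promoters of these 22 genes had a median of 25.5 CpG in 300 bases, against 7 for all promoters, and both motifs contain CpG. Of the 8 called genes with a promoter, Trim28 held CACGCG and none held CACGTG. The sites are shown with 30 bases each in the direction of the gene and the motif in capitals, since they are the matches behind these shares.
Trim28 (chr7:13024157-13024186, plus strand, after the start): tgcgcgctcaagCACGCGggttgccagcct
Ranbp2 (chr10:58446753-58446782, plus strand, before the start): ttgcgaaacggtCACGTGgtctggagcgcg
Senp8 (chr9:59750814-59750843, minus strand, before the start): gccccgcctccgCACGTGacgctgctggag
Senp3 (chr11:69682057-69682086, minus strand, before one start and after another): gtgggactgccaCACGCGgcaagccaggcg
Rnf4 (chr5:34336687-34336716, plus strand, before the start): tttcccggagagCACGCGgttgtcggaaca
Desi1 (chr15:82016406-82016435, minus strand, before the start): gggcaccacgtcCACGCGggctccttgtct
Sumo2 (chr11:115536419-115536448, minus strand, before the start, motif on the other strand): gcgggactggtgCGCGTGtccgcgcctctt
Among these 7 genes, Trim28 rose and the other 6 did not pass, while Rangap1, Senp1, Pias1, Uba2, Senp5, Topors and Rnf111 held neither motif in the windows searched. A match is a run of letters and not a bound site, and windows further away were not searched.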

How the data were processed

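The authors deposited FPKM per gene for 6 libraries, 1 column each, per the file headers (17463 entries, 17450 symbols; for 12 symbols with more than 1 entry, that of highest mean kept the name). Per the submitters' processing notes, tools included StringTie 1.3.3b, HISAT2 2.1.0, SAMtools 1.9 and FastQC 0.19.7, and the build was mm10. The annotation, strand handling, treatment of reads shared by gene copies and read totals are not given there. Because FPKM is relative to a library's total, abundant genes that rise lower the others.

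The 11432 genes that reached 1 FPKM in 3 or more libraries were compared on log2(FPKM + 1) with limma 3.58.1 in R 4.3.3 (variance trend, two-sided, Benjamini-Hochberg over all genes, threshold 0.05), without covariates. The log2 scale with a pseudocount of 1 understates changes of low genes. Fold values are ratios of mean FPKM. The fit was run on simulated data with normal noise and few changed genes. In the real data 53.2% of genes passed, so that run does not gauge the calls made here. Alternatives were a pseudocount of 0.1, no filter, 2 scalings, no trend, a replicate block and leaving out each library. The 28 genes and the other lists were chosen with earlier results of these data known. All 28 are named. From each other list, up to 3 genes of smallest p are named, or 2 of highest mean for cell type markers. Others are named where a list split by cell type or values lay near the filter. Gene positions are from GENCODE M21 (GRCm38). Python 3.11.15, pandas 2.3.3 and matplotlib 3.10.9 were used.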

Additional observations from a re-analysis of the deposited data

How the results depend on the processing

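Counts over all genes stayed within 1.5 times of 3414 higher and 2670 lower in every alternative (2911 to 3961 and 2342 to 3290). Among the 28 genes, 7 higher and 3 lower became 5 and 6 after median-of-ratios scaling and 6 and 8 after quantile normalization. Leaving out 1 library gave 5 to 7 higher and 2 to 5 lower, the 5 lower without HEY1-WT KI replicate 1. Their median log2 fold change of -0.0038 was -0.029 and -0.043 under those scalings, where the median of all genes was -0.0039 and -0.023, and -0.017 to 0.022 with 1 library left out. The replicate block gave 6 higher and 3 lower. It ended the call of Zmiz2 and changed no other call among the 28 (27 tested). For Sumo2 the block lowered the SE from 0.26 to 0.0763, and the call was still not made (limma adjusted p = 0.196). Deviations of same-numbered libraries correlated at -0.191, 0.254 and -0.272, and those of other pairs at -0.24 to 0.381. With 3 libraries per genotype these values cannot show whether libraries were paired. Some genes that did not pass changed sign, near 0 except for Sumo2, which moved widely when single libraries were left out. Sumo3 was -0.0094 and Rnf4 -0.011 after median-of-ratios scaling, and Sumo3 was -0.0086, Pias3 -0.0031 and Rnf4 -0.025 after quantile normalization. With 1 library left out, Sumo2 ranged from -0.092 to 0.41, Senp6 from -0.017 to 0.012, Desi2 from -0.035 to 0.017, Rnf4 from -0.0098 to 0.042, Senp3 from -0.037 to 0.022 and Pias3 from -0.015 to 0.066. The cause of these shifts was not tested. With 3 libraries per genotype and unknown depth, no interval for counting error can be given.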
